A study of Mus musculus with 4 samples.

Results

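Neutrophil granule and marker genes were examined in the outer tissues of the mouse femoral artery, which consist mainly of perivascular adipose tissue (PVAT), after wire injury or sham operation. The genes were chosen by name, as 10 neutrophil symbols looked up in the deposited table of 12661 genes, and 6 of the 10 were found: *S100a8*, *S100a9*, *Retnlg*, *Csf3r*, *Lcn2* and *Lrg1*. *Ngp*, *Camp*, *Ltf* and *Mpo* were not analysed here. All animals were wild-type C57BL/6 female mice (C57BL/6J in the study's methods), 11 weeks old and ovariectomized, so the controls shared the loss of ovarian estrogen with the injured group. The injury group (2 libraries) had a spring wire 0.38 mm in diameter passed into the femoral artery and the sham group (2 libraries) had the sham operation. Tissue was taken at 48 h in both groups, and each library started from 480 ng of total RNA. Nothing in the labels says whether the 2 libraries of a group came from separate animals, so p-values measure only the spread between these libraries.

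Neutrophils are short-lived leukocytes that leave the blood within hours of tissue damage. They carry proteins made ahead of time in the bone marrow and packed into granules, in the order of azurophil granules (myeloperoxidase and serine proteases), specific granules (lactoferrin, cathelicidin and lipocalin 2) and gelatinase granules. Their cytosol is rich in the calcium-binding pair S100A8 and S100A9, known together as calprotectin. Mature neutrophils follow CXC chemokines through CXCR2 and are kept alive by granulocyte colony-stimulating factor through its receptor, CSF3R. Granule protein mRNAs are made mostly in marrow precursors, whereas mRNAs of *S100a8*, *S100a9*, *Csf3r* and *Retnlg* are abundant in circulating cells. *Lcn2* and *Lrg1* are not particular to neutrophils, since adipocytes, epithelium and hepatocytes make lipocalin 2 and endothelium and liver make LRG1.

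The deposited values are signed decimals on a log-like scale whose base and zero point are not stated in the sources used here. A difference is therefore given in deposited units and is no fold change, and the level of 1 gene cannot be set against that of another. The 4 libraries had medians within 0.01 of 0, and the SD over genes ran from 0.32 in injury replicate 2 to 0.44 in sham replicate 1. Read depth is unknown. In bulk tissue, fewer cells of a type and less RNA per cell cannot be told apart.

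*S100a8* and *S100a9* lie in the S100 gene cluster on chromosome 3 of mouse assembly NCBIM37 (mm9), at 90472993-90473956 on the plus strand and 90496554-90499643 on the minus strand, with 22597 bases between the gene models. *Retnlg* is at chr16:48872721-48874611 (plus strand), *Csf3r* at chr4:125701794-125722219 (plus strand), *Lcn2* at chr2:32240153-32243317 (minus strand) and *Lrg1* at chr17:56259103-56261369 (minus strand). Promoter sequences were taken from RefSeq (table build GRCm38.p6), and all 6 matched NCBIM37 exactly at 1 place. The 4 shown belong to the calprotectin pair, whose values were nearly the same in every library, to *Retnlg*, the gene that passed the test, and to *Lcn2*, whose difference had the opposite sign. The sequences run 5′ to 3′ on the gene's strand, with motif matches in capitals, and hold the 250 bases before the start that RefSeq gives. For *Lcn2* 192 of them are shown, since the gene model above (GENCODE) begins 58 bases before the RefSeq start. It begins 109 bases before it for *Csf3r*, and both starts are the same for the other 4 genes.
S100a8 promoter, NCBIM37 chr3:90472743-90472992, plus strand: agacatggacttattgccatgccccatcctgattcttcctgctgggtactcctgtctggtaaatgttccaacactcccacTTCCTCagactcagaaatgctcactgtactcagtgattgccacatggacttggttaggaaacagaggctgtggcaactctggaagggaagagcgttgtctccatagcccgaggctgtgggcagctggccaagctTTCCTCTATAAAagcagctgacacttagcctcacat
S100a9 promoter, NCBIM37 chr3:90499644-90499893, minus strand: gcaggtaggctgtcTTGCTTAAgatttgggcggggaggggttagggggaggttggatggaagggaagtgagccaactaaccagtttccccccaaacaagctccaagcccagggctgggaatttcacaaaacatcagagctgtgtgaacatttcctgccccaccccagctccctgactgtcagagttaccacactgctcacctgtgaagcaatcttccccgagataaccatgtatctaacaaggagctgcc
Retnlg promoter, NCBIM37 chr16:48872471-48872720, plus strand: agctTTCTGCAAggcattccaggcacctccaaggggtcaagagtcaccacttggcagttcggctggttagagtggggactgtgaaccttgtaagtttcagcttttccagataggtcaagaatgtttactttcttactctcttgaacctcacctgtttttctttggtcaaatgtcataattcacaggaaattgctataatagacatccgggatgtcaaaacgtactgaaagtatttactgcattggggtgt
Lcn2 promoter, NCBIM37 chr2:32243318-32243509, minus strand: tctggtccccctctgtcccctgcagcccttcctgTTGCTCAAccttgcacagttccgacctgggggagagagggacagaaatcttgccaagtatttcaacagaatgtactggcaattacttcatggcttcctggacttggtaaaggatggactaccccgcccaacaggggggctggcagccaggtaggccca

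In the 250 bases before and the 50 bases after the RefSeq start of each of the 6 genes, 6 motifs were searched on both strands. They were the C/EBP motif written as TTGCNNAA, the core of PU.1 sites written as GAGGAA, the STAT motif written as TTCNNNGAA, the TATA box written as TATAAA, the AP-1 motif written as TGANTCA, and the NF-kappaB motif by its name. TTGCNNAA was found in *Lcn2* (216 bases before the start), *S100a9* (236 bases before) and *Retnlg* (246 bases before), and it is in 10.8% of the 32851 RefSeq promoters of the same length. GAGGAA, read as TTCCTC on the other strand in *S100a8* and *Lcn2*, was found at 170 and 36 bases before the start of *S100a8*, at 20 before that of *Lcn2* and at 86 before that of *Csf3r*, and 28.3% of promoters hold it. In *Lcn2* and *Csf3r* this match lies inside the GENCODE gene model. In *S100a8* the nearer of these adjoins TATAAA, which starts 30 bases before the start. TATAAA was also found just after the annotated start in *S100a9* and *Lrg1*, and 13.6% of promoters hold it. The letters of the STAT, AP-1 and NF-kappaB motifs, held by 8.3%, 7.8% and 4.5% of promoters, were in none of the 6 windows. C/EBP matches thus occurred both in genes with higher and in a gene with lower values after injury.

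Calprotectin genes were higher after injury in each library compared, and the pair ran in parallel. *S100a8* was at -1.63 and -0.97 in sham replicates 1 and 2 and at 1.22 and -0.11 in injury replicates 1 and 2. *S100a9*, its heterodimer partner, was at -1.55 and -0.97 after sham operation and at 1.31 and -0.08 after injury. Both injury libraries lay above both sham libraries for each gene, with injury replicate 1 far above injury replicate 2. The values of the pair differed by at most 0.092 in any library. The difference between injury and sham was 1.86 for *S100a8* (standard error 0.47, 95% interval 0.69 to 3.02) and 1.88 for *S100a9* (standard error 0.47, 95% interval 0.69 to 3.07). Neither passed the threshold of 0.05 after Benjamini-Hochberg adjustment over all genes (adjusted p = 0.0707 and 0.0711 from limma).

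*Csf3r*, which encodes the receptor for granulocyte colony-stimulating factor, was at -1.46 and -0.97 after sham operation and at 1.56 and 0.18 after injury. The groups did not overlap, and injury replicate 1 again stood well above injury replicate 2. Its difference of 2.09 (standard error 0.46, 95% interval 0.94 to 3.24) was the highest of the 6 genes and missed the threshold (adjusted p = 0.055 from limma). *Retnlg*, a resistin-like secreted protein made by neutrophils and their marrow precursors, was at -1.34 and -1.03 after sham operation and at 0.95 and 0.35 after injury. The injury libraries were closer together here than for the other 3 genes with higher values. *Retnlg* rose by 1.83 (standard error 0.24, 95% interval 1.23 to 2.44, adjusted p = 0.0291 from limma) and was the sole gene of the 6 to pass. Without sham replicate 1 its adjusted p was 0.176 and without sham replicate 2 it was 0.113 (limma), fits in which 0 genes and 1 gene passed in all.

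*Lcn2* and *Lrg1* differed in the other direction. *Lcn2*, the iron-siderophore-binding lipocalin of specific granules, was at 0.63 and 1.09 after sham operation and at 0.08 and -0.30 after injury. Both injury libraries lay below both sham libraries, and the highest value was that of sham replicate 2. The difference was -0.97 (standard error 0.22, 95% interval -1.53 to -0.42) and missed the threshold (adjusted p = 0.0594 from limma). *Lrg1*, a secreted leucine-rich glycoprotein that modulates endothelial TGF-beta signalling and is also stored in neutrophil granules, was at -0.20 and 0.41 after sham operation and at -0.59 and -0.53 after injury. The injury libraries were close together and below both sham libraries, which were themselves 0.61 apart. Its difference was -0.66 (standard error 0.23, 95% interval -1.23 to -0.09, adjusted p = 0.129 from limma). Without sham replicate 2 the difference of *Lrg1* was -0.36.

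**Figure D1:**
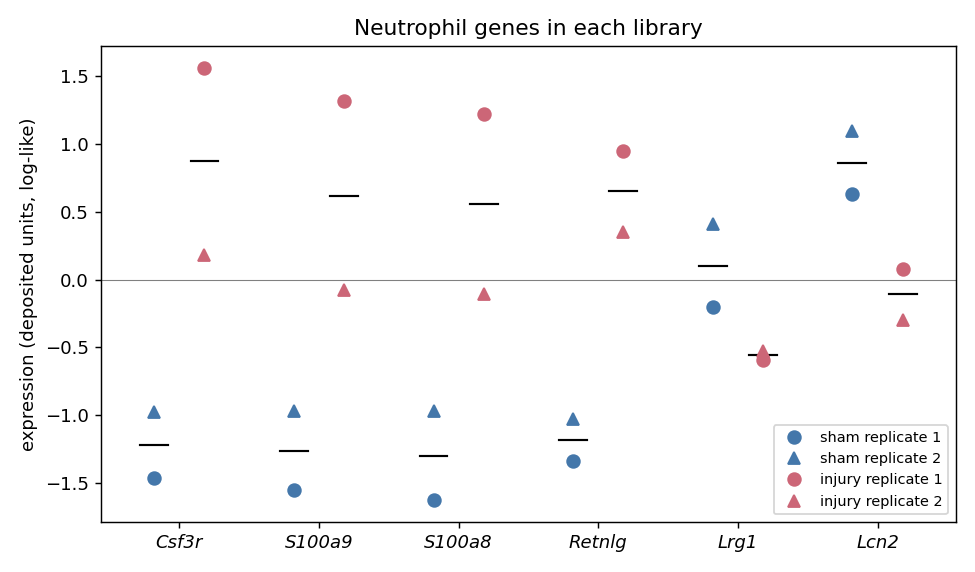
Expression of the 6 neutrophil genes in each library, in deposited log-like units (vertical axis); circles and triangles are replicates 1 and 2, and black bars are means of 2 libraries. *Csf3r*, *S100a9*, *S100a8* and *Retnlg* have both injury libraries above both sham libraries, and *Lrg1* and *Lcn2* have both below.

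Of the 6 genes 1 was called by limma, *Retnlg* (higher), where 7.43% of all genes were called, 3.76% as higher and 3.67% as lower. A robust variance prior gave the same count of 1, with 6.8% of all genes called, and quantile normalization or scaled columns gave 2, with 8.38% and 8.91%. At a looser threshold of 0.1 on the adjusted p-value 5 of the 6 genes passed, *Lrg1* being the exception, against 18.3% of all genes. Before adjustment 6 of 6 had p under 0.05, against 29.5% of all genes. In 4 genes both injury libraries lay above both sham libraries, which held for 31.6% of all genes, and in 2 they lay below, which held for 30.3% (61.9% in either direction). The median difference was 1.85 over the 6 genes and 0.0085 over all genes. The 4 higher genes had differences above those of at least 99.2% of genes, whereas *Lcn2* and *Lrg1* lay above 3.62% and 8.16%. The smallest two-sided p that an exact permutation test allows with 2 libraries a group is 0.333, so the adjusted p-values rest on the variance that limma shares across genes.

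**Figure D2:**
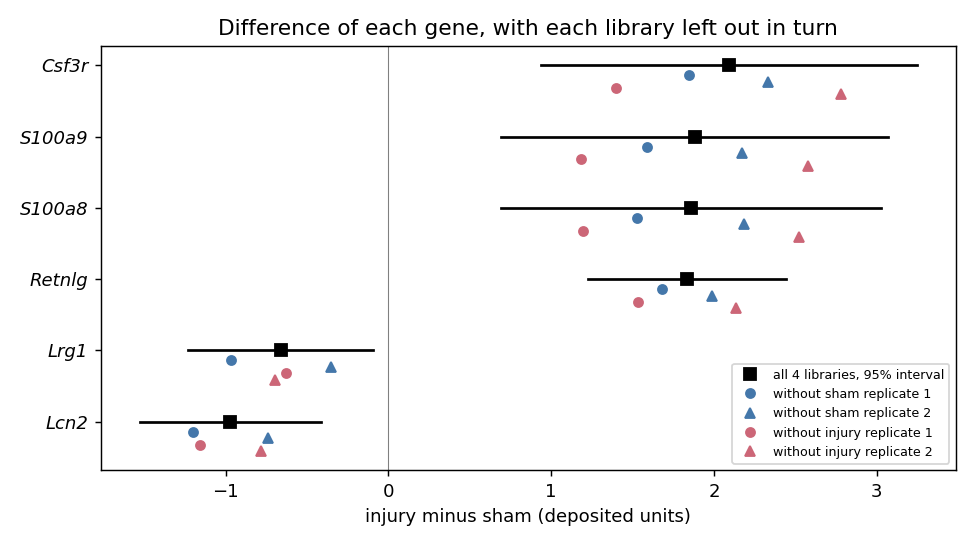
Injury minus sham difference of each gene in deposited units (horizontal axis); black squares with lines are the fit to all 4 libraries with its 95% interval, and colored points are fits without 1 library. Every gene kept the sign of its difference, and the points without injury replicate 1 and without injury replicate 2 are far apart for *Csf3r*, at 1.40 and 2.78, and for *S100a9*, at 1.18 and 2.58.

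The size of these differences depended on which injury library was read. Injury replicate 1 was above injury replicate 2 by 1.39 for *S100a9*, 1.38 for *Csf3r*, 1.33 for *S100a8*, 0.60 for *Retnlg* and 0.38 for *Lcn2*, and *Lrg1* was 0.06 lower. The median gap was 0.96 over the 6 genes and -0.0064 over all genes, of which 48.9% were higher in injury replicate 1. Genes that were higher after injury shared the sign of this gap more often. Among the 476 genes called higher the median gap was 0.34, with 80.7% above 0. Among the 4003 genes with both injury libraries above both sham libraries it was 0.067, with 62.5% above 0. The gaps of *S100a9*, *Csf3r* and *S100a8* were above those of 99.6%, 99.6% and 99.5% of genes, and that of *Retnlg* was above those of 94.7%. For *S100a8*, *S100a9* and *Csf3r* this gap was larger than the distance from injury replicate 2 to the nearer sham library, which was 0.87, 0.89 and 1.16. Without injury replicate 2, 4 of the 6 genes were called higher, *S100a8*, *S100a9*, *Csf3r* and *Retnlg*, with adjusted p-values between 0.0073 and 0.0103 from limma. In that fit 7.45% of all genes were called higher, against 3.76% with all 4 libraries. Leaving out injury replicate 1 instead left a difference of 1.19 for *S100a8* and of 1.18 for *S100a9*, against 2.52 and 2.58 without injury replicate 2, and *Retnlg* was then the 1 gene of the 6 called (adjusted p = 0.0442 from limma), where 1.43% of all genes were called higher. The sham libraries also differed, and all 6 genes were lower in sham replicate 1 than in sham replicate 2, by 0.31 for *Retnlg* up to 0.66 for *S100a8*.

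Among all genes of the table the one with values nearest to *S100a8* over the 4 libraries was *S100a9*, at a root mean square distance of 0.060 deposited units. This distance was taken on the values as deposited. The order therefore mixes any offset between genes with their pattern over the libraries. It was followed by *Slc2a6* (0.119), a glucose transporter family member, *Clec4d* (0.135), a C-type lectin receptor of myeloid cells, *Mefv* (0.137), which encodes pyrin, and *Clec5a* (0.142), another myeloid lectin. *Csf3r* was 30th in this order and *Retnlg* 66th. The genes nearest to *Lcn2* were *Epha4* (0.163), *Rnf165* (0.197), *Pde7b* (0.205), *Fat4* (0.206) and *Fosb* (0.212), none of them in the neutrophil or marker lists used here. *Lrg1* was at 0.645 from *Lcn2*, and *Csf3r* was at 1.67 from it.

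The S100 genes, a family chosen for description after its values were seen, did not share 1 direction. There were 10 S100 genes, of which 1 was called higher and 0 lower, near the 7.43% of all genes called. *S100a4*, also in the cytosol and enzyme list, a regulator of cell motility expressed in fibroblasts and leukocytes, rose by 1.39 (adjusted p = 0.0285 from limma) with values of -1.29 and -1.46 after sham operation and -0.07 and 0.09 after injury. Unlike the calprotectin genes it had no excess in injury replicate 1, which was 0.16 lower than injury replicate 2. *S100a6*, which lies in the same cluster, had a difference of 0.34 and *S100a11* one of -0.10, and neither passed. In the resistin family *Retnla*, a product of alternatively activated macrophages and adipose tissue, had a difference of 0.98 (adjusted p = 0.136 from limma). *Retn*, the adipocyte gene for resistin, was at 0.63 and 0.51 after sham operation and at -1.01 and 0.28 after injury. It was thus lowest in the injury library where *Retnlg* was highest, with a difference of -0.94 (adjusted p = 0.202 from limma). The list of adipocyte markers, which holds *Retn*, had a median gap of -0.48 between injury replicates 1 and 2.

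Granule genes were examined by class. Of the azurophil granule list 3 of 7 genes were analysed, and 0 were called higher and 1 lower, where 3.67% of all genes were called lower. The list had 0 calls without injury replicate 1 and 2 (1 higher and 1 lower) without injury replicate 2, where 2.24% and 14.1% of all genes were called. *Prtn3*, proteinase 3, was at -0.73 and -0.38 after sham operation and at -1.16 and -0.63 after injury, and these groups overlapped. *Serpinb1a*, an inhibitor of neutrophil serine proteases, fell by 0.81 (adjusted p = 0.0327 from limma). *Ctsc*, the protease that activates those enzymes, had a difference of 0.73 and did not pass (adjusted p = 0.239 from limma). Leaving out injury replicate 1 gave it a difference of 0.19, and leaving out injury replicate 2 one of 1.26, which was called (adjusted p = 0.0166 from limma). *Elane* and *Ctsg* were not analysed here.

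In the specific and gelatinase granule list, apart from *Lcn2*, 13 genes were analysed, 3 rose, 0 fell and 10 did not pass, with a median difference of 0.92, where 3.76% of all genes were called higher. *Mmp8*, neutrophil collagenase, was at -1.02 and -0.68 after sham operation and at 0.72 and 0.50 after injury, and rose by 1.46 (adjusted p = 0.0285 from limma). *Adam8*, a sheddase of myeloid cells, rose by 1.95 (adjusted p = 0.0368 from limma), and *Lyz2*, the lysozyme of neutrophils and macrophages, by 1.54 (adjusted p = 0.0285 from limma). *Slpi*, an inhibitor of neutrophil elastase, had the largest difference of those not called, 2.20 (adjusted p = 0.0546 from limma). *Mmp9*, the gelatinase B of gelatinase granules, was at 1.09 in injury replicate 1 and at -0.36 in injury replicate 2, against -0.63 and -0.72 after sham operation (adjusted p = 0.202 from limma). *Hp*, haptoglobin, had a difference of -0.45 and did not pass (adjusted p = 0.342 from limma). *Ceacam1* and *Wfdc21* had differences of -1.04 and -0.86 and did not pass (adjusted p = 0.0728 and 0.0825 from limma). Both injury libraries lay below both sham libraries in these 2 of the 13 genes (30.3% of all genes). They lay above in 8 (31.6% of all genes). After quantile normalization, and with the columns scaled to 1 spread, 6 genes of the list with *Lcn2* (5 higher and 1 lower) were called in place of 3, where the calls over all genes went from 7.43% to 8.38% and 8.91%. Without injury replicate 2 the list had 7 calls (6 higher and 1 lower), against 14.1% of all genes.

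Surface and signalling genes of mature neutrophils, most of which monocytes and macrophages also express, had both injury values above both sham values for each of the 23 analysed apart from *Csf3r*, which held for 31.6% of all genes. Of these, 9 rose, 0 fell and 14 did not pass, with differences from 0.50 to 2.20 and a median of 1.62. *Cxcr2*, the chemokine receptor that brings neutrophils to tissue, was at -1.13 and -0.99 after sham operation and at 1.94 and 0.35 after injury. It differed by 2.20 between groups (standard error 0.50) without passing (adjusted p = 0.0583 from limma). The beta2 integrin chains *Itgam* and *Itgb2*, which form CD11b/CD18, rose by 1.61 and 1.48 (adjusted p = 0.0291 for both from limma). *Clec4d*, *Pirb*, *C5ar1* and *Lilrb4a*, receptors of myeloid cells, rose by 2.07, 2.01, 1.93 and 1.79. Injury replicate 1 exceeded injury replicate 2 in all 23, by 0.45 to 1.67 with a median of 1.08. This also held for 80.7% of all genes called higher (median gap 0.34). It held for 62.5% of all genes with both injury libraries above both sham libraries (median gap 0.067). Without injury replicate 2 the list, *Csf3r* included, had 24 of 24 genes called higher by limma, against 9 with all 4 libraries and 6 without injury replicate 1, where 7.45%, 3.76% and 1.43% of all genes were called higher. *Ly6g*, the defining surface marker of mouse neutrophils, was not analysed here.

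Cytosolic and enzyme genes of neutrophils numbered 21 apart from the calprotectin genes and *Retnlg*, of which 8 rose, 0 fell and 13 did not pass. *Cybb* and *Ncf1*, subunits of the phagocyte NADPH oxidase, rose by 1.92 and 1.83, *Lst1* by 1.81 and *Alox5ap*, the activating protein of leukotriene synthesis, by 1.73. *Irg1*, the itaconate-producing enzyme now named *Acod1*, had the largest difference of the list, 2.77, but missed the threshold (adjusted p = 0.0585 from limma), with 2.29 in injury replicate 1 and 0.53 in injury replicate 2. Counting the calprotectin genes and *Retnlg*, 9 of 24 genes were called with all 4 libraries, 16 when injury replicate 2 was left out and 7 when injury replicate 1 was, each of them higher. In these fits 3.76%, 7.45% and 1.43% of all genes were called higher.

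Genes for factors that attract or sustain neutrophils had a median difference of 2.05 over 11 analysed, of which 1 rose, 0 fell and 10 did not pass. The 1 call of 11 is near the 7.43% of all genes called. *Cxcl3*, a CXCR2 ligand, was at -1.97 and -0.82 after sham operation and at 1.67 and 0.91 after injury, and rose by 2.68 (adjusted p = 0.033 from limma). Its close relative *Cxcl2* had a difference of 2.45 (adjusted p = 0.057 from limma), with both injury libraries above both sham libraries. The ligands *Cxcl1* and *Cxcl5* were high in injury replicate 1 alone. *Cxcl5* was at 1.29 there and at -1.17 in injury replicate 2, against -0.78 and -0.75 after sham operation. The sham values of *Cxcl1* were -0.72 and -0.14, and its injury values 0.61 and -0.50. For both genes the sign of the difference turned without injury replicate 1, to -0.40 for *Cxcl5* and -0.07 for *Cxcl1*. After quantile normalization or scaling 3 of the 11 were called, against 8.38% and 8.91% of all genes. Without injury replicate 2, 10 of the 11 were called, against 14.1% of all genes, and without injury replicate 1 none was (limma). *Csf3*, the ligand of *Csf3r*, was not analysed here. Of 7 adhesion genes with which endothelium holds neutrophils 0 rose, 2 fell and 5 did not pass, and *Icam2* and *Pecam1* fell by 1.06 and 1.04 (adjusted p = 0.0291 for both from limma). The list lost its calls without injury replicate 1, a fit that also called fewer genes in all. Injury replicates 1 and 2 were close together, at -0.53 and -0.52 for *Icam2* and at -0.30 and -0.18 for *Pecam1*. *Vcam1* had a difference of -1.06 (adjusted p = 0.0591 from limma). General endothelial markers, of which *Pecam1* and *Cdh5* are also in the adhesion list, were lower beside them, with 2 of 10 called lower (3.67% of all genes) and 9 of 10 with both injury libraries below both sham libraries (30.3% of all genes, median difference -0.65), and their part in the adhesion values was not tested.

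Regulators of granulocyte development and receptors for the proteins themselves were next compared. Of 7 granulopoiesis factors 1 rose, *Cebpb*, the C/EBP member of emergency granulopoiesis, by 1.17 (adjusted p = 0.0285 from limma). *Spi1*, which encodes PU.1, had a difference of 1.64 (adjusted p = 0.0509 from limma). Of these 7 factors 4 were called higher without injury replicate 2 and 2 without injury replicate 1, and over all genes 3.76% were called higher with all 4 libraries, 7.45% without injury replicate 2 and 1.43% without injury replicate 1. Of the 7 genes by which S100A8 and S100A9 are sensed none was called (limma) and 4 had an unadjusted p-value under 0.05, against 29.5% of all genes. Without injury replicate 2, 4 of the 7 were called higher, where 7.45% of all genes were, and with the columns scaled to 1 spread 1 was. The signalling receptor *Tlr4* had a difference of 0.50 (adjusted p = 0.213 from limma) and its co-receptor *Cd14* one of 1.48 (adjusted p = 0.0558 from limma). Of 6 genes of TGF-beta family receptors and their SMAD transducers 0 rose and 1 fell, with 2 called lower without injury replicate 2 and 0 without injury replicate 1 (7.43%, 14.1% and 2.24% of all genes were called in either direction in these fits). *Eng*, endoglin, the TGF-beta co-receptor that LRG1 binds, fell by 1.14 (adjusted p = 0.0327 from limma), with values of 0.52 and 0.94 after sham operation and -0.39 and -0.44 after injury. *Acvrl1*, its signalling partner, had a difference of -0.74 (adjusted p = 0.0543 from limma). Of 7 lipocalin receptor and iron genes none was called (limma) and 2 had an unadjusted p-value under 0.05, near the 29.5% of all genes. An adjusted p under 0.1 gave 1 call, where 18.3% of all genes were called. Leaving out injury replicate 2 raised the count, as it did over all genes. *Hmox1*, heme oxygenase 1, had a difference of 1.04 (adjusted p = 0.167 from limma). Among 12 acute phase and related genes 1 rose, *Il1rn*, the interleukin 1 receptor antagonist, by 2.64 (adjusted p = 0.0435 from limma), and 1 fell, *Lbp*, the lipopolysaccharide-binding protein, by 1.75 (adjusted p = 0.0285 from limma). The 2 calls of 12 stand beside 7.43% of all genes, and the list had 3 calls without injury replicate 2 (14.1% of all genes) and 1, *Lbp*, without injury replicate 1 (2.24%). *Saa3*, an acute phase gene often induced together with *Lcn2*, had a difference of -0.03 (adjusted p = 0.915 from limma), which was slightly above 0 after quantile normalization or scaling.

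Markers of other cells moved with the injury as well, and their part in the values above was not tested. Of 18 monocyte and macrophage markers 9 rose, 0 fell and 9 did not pass, with a median difference of 1.28 and a median gap between the injury libraries of 0.54. Over all genes 3.76% were called higher. Without injury replicate 1 the calls among the markers were 3 (2.24% of all genes), and without injury replicate 2 they were 15, of which 1 was lower (14.1% of all genes). *Ccr2* and *Fcgr1* rose by 2.30 and 2.14, and *Ly6c2*, a marker of inflammatory monocytes, was at -2.04 and -0.74 in the sham libraries and at 1.85 and 0.08 in the injury libraries (adjusted p = 0.0908 from limma). Blood markers had the opposite gap. So did the adipocyte list (median -0.48, 2 of 12 genes higher in injury replicate 1). The mast cell, eosinophil and basophil list did as well (median -0.81, 1 of 6). Of 12 erythroid and platelet genes, with 9 distinct sets of values because globin copies carry the same values, 3 rose and 0 fell, and in 11 of the 12 injury replicate 1 had the lower value, with a median gap of -0.58. *Alas2*, the heme synthesis enzyme of red cells, was at -0.28 and -1.01 in the sham libraries and at 0.36 and 1.05 in the injury libraries. The list had 0 calls in place of 3 after quantile normalization, with scaled columns, with a robust variance prior or without either sham replicate, and 1 without injury replicate 1. Of 6 lymphocyte markers 1 rose, *Klrb1c*, where 3.76% of all genes were called higher. The count grew without injury replicate 2 and shrank without injury replicate 1, as it did over all genes. Of 6 mast cell, eosinophil and basophil markers none was called and none had an unadjusted p-value under 0.05 (limma), with 0 calls in the other fits as well.

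Cells that can make *Lcn2* and *Lrg1* were compared with those genes. The adipocyte list had 12 of 12 genes analysed, 0 rose and 1 fell, *Plin1*, the lipid droplet coat protein, by 0.74 (adjusted p = 0.0444 from limma), and its median difference was -0.45. That 1 call stands beside 7.43% of all genes, and the count was 6, all lower, without injury replicate 2 (14.1% of all genes in either direction) and 0 without injury replicate 1 (2.24%). The endothelial list had 10 of 10 genes analysed, 0 rose and 2 fell, *Vwf* by 2.40 and *Pecam1* by 1.04, where 3.67% of all genes were called lower. The count shrank without injury replicate 1, as it did over all genes. The median difference of the endothelial list was -0.65, so that *Lrg1* at -0.66 lay near that median. Of the epithelial and keratinocyte list 2 of 18 genes were analysed. *Cdh1*, E-cadherin, was at 2.23 in sham replicate 1 and at 0.26 in sham replicate 2, and the acute phase gene *Saa1* was at 6.45 and 1.07. The other epithelial gene analysed, *Sfn*, was at 0.48 and 0.47 after sham operation and at 0.44 and 0.26 after injury, with no excess in sham replicate 1. *Lcn2* and *Lrg1* were lower in sham replicate 1 than in sham replicate 2. Without sham replicate 1 the differences of *Lcn2* and *Lrg1* were -1.20 and -0.97. The mesothelial list had 1 gene analysed, *Gpm6a*, which fell by 1.70 (adjusted p = 0.0285 from limma). Which cells the *Lcn2* and *Lrg1* transcripts came from was not tested.

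**Figure D3:**
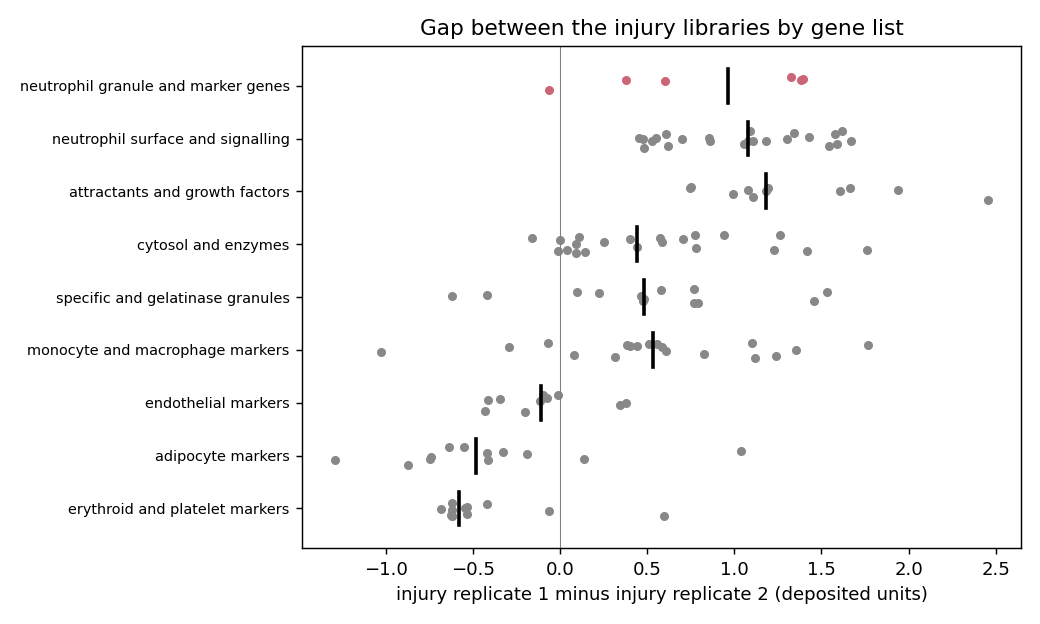
Injury replicate 1 minus injury replicate 2 in deposited units (horizontal axis) for each gene of 9 lists; dots are genes, black bars are medians, and the 6 neutrophil genes (red) are left out of the other lists. Medians are 0.96 for the neutrophil granule and marker genes, 1.08 for neutrophil surface genes and 0.54 for macrophage markers. They are -0.48 for adipocyte markers and -0.58 for erythroid and platelet markers.

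**Figure D4:**
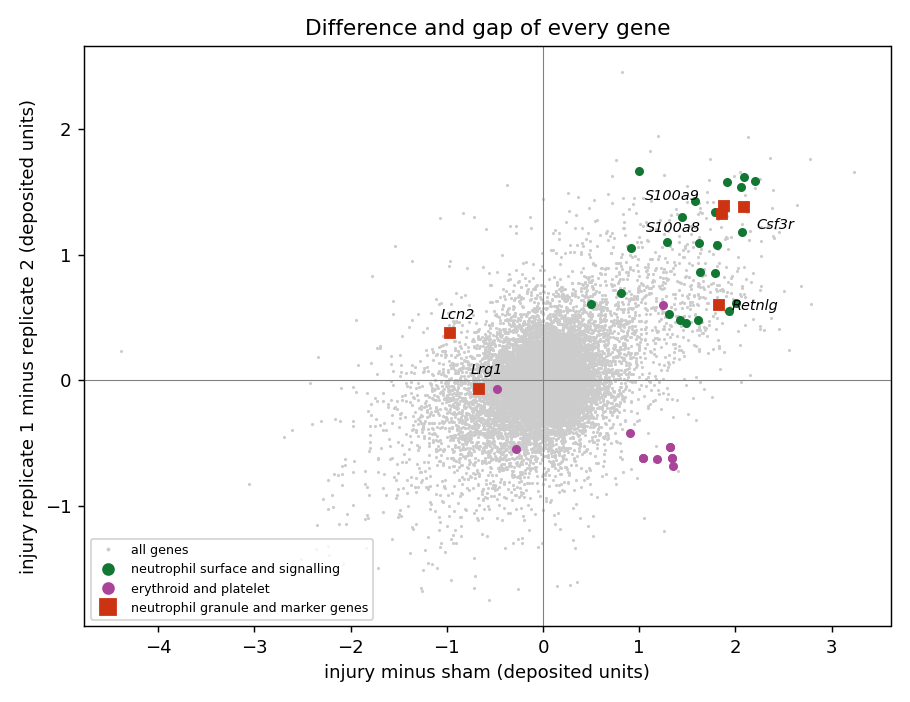
Injury minus sham difference (horizontal axis) against the gap between the injury libraries (vertical axis) for every gene, in deposited units; grey dots are all genes, green circles neutrophil surface genes, purple circles erythroid and platelet genes and red squares the 6 neutrophil genes. *S100a8*, *S100a9* and *Csf3r* lie at the upper right among the surface genes, *Retnlg* lies below them, and *Lcn2* and *Lrg1* lie left of 0.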

How the data were processed

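Bulk RNA-seq of 4 libraries was used. Per the submitters' notes, the authors used FastQC 0.11.8 for read quality, Cutadapt 1.18 and Trimmomatic 0.39 for trimming, STAR 2.6.0a for alignment (mm9), featureCounts for counting per gene, and DESeq2 1.28.0 under R 3.6.0. The values the authors deposited are a signed, log-like score per gene and library and not counts, and the step that made them is not given in the sources used here. The test of the study needs counts, so limma 3.58.1 in R 4.3.3 was used on the deposited score (group as the only term, all 4 libraries, no filter on low values), with Benjamini-Hochberg adjustment over 12661 genes and a threshold of 0.05. The fit had 2 residual and 3.48 prior degrees of freedom per gene. It was also run on 10 simulated data sets, whose outcome is not reported here. Depth is unknown, so no counting interval is given.

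The genes and lists were chosen with earlier results of these data known. Named genes were the 6 genes found, genes paired with the 6 by function, and picks from each other list. The picks were up to 4 called genes with the largest difference and the uncalled gene with the largest difference. The 5 genes nearest to *S100a8* and to *Lcn2* were also printed. Those not chosen by these rules are outside the 64 named genes for which alternatives are reported. The S100 and resistin families were added after their values were seen. Positions come from GENCODE vM1 (NCBIM37). Summaries used Python 3.11.15 (pandas 2.3.3) and plots matplotlib 3.10.9. The alternatives comprised a fit with a replicate block, fits without each library, quantile normalization, columns scaled to 1 spread, a robust variance prior and a threshold of 0.1.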

Additional observations from a re-analysis of the deposited data

How the results depend on the processing

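Each of the 6 neutrophil genes kept the sign of its difference under every alternative run. The number of them called was 1 with all 4 libraries (941 of all genes), 1 with a robust variance prior (861), 2 (*Retnlg* and *Csf3r*) after quantile normalization (1061), 2 (the same genes) with the columns scaled to 1 spread (1128), and 5 at an adjusted p under 0.1. Leaving out each library in turn gave 0 to 4 genes called, 0 without either sham replicate, 1 without injury replicate 1 and 4 without injury replicate 2. Over all genes, leaving out each library gave 0 to 1790 calls where all 4 libraries gave 941 (284 without injury replicate 1), and an adjusted p under 0.1 gave 2317. The fits without a sham replicate called almost no gene of the whole table, so the absence of calls in a list there says nothing about that list. The fits without a library have 1 sample in a group, assumed to vary like the other group. With the replicate block 1 of the 6 genes and 684 genes in all were called. Of the named genes 11 lost their call in that fit and 2 gained one. *Adam8* and *Clec4d* were among those lost (adjusted p = 0.0523 and 0.0554 from limma). The azurophil, adipocyte and lymphocyte lists went from 1 call to 0. The replicate numbers do not pair the samples by any label, and the correlation over genes of the replicate 1 minus 2 deviations between sham and injury was -0.094. The 6 genes did not overlap between groups after either rescaling, and the median gap between injury libraries was 0.77 after quantile normalization and 0.85 with scaled columns. Among 64 named genes, signs turned for *Cxcl1* (-0.069 without injury replicate 1 to 1.04 without injury replicate 2), for *Cxcl5* (-0.40 to 2.05 likewise) and for *Saa3*, at 0.011 after quantile normalization, 0.020 with scaled columns and 0.13 without injury replicate 1 (-0.19 without injury replicate 2). Count models, their normalizations and filters on low counts were not run, because the values are not counts.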
